A study of Mus musculus with 103 samples.

Results

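Liver RNA of old and young C57BL6/J mice kept on a normal diet was compared around the clock. The arrays were chosen by their titles, as those naming old or young liver on the normal diet, which gave 47 of the 103 arrays of the series, 22 from old and 25 from young mice. C57BL6/J is an inbred laboratory strain. Every mouse of the series was described as having received its diet for 25 weeks, in cycles of 12 h light and 12 h dark. The old arrays came from 12 females and 10 males of 84 to 93 weeks (median 88). The young arrays came from 13 females and 12 males with a median age of 52 weeks and a highest of 57; 1 young array at ZT4 carried a labelled age of 23 weeks, and the next lowest age was 48 weeks. The comparison is therefore one of mice in late life with mice in middle life by their labelled weeks, not with juveniles. Livers were collected every 4 h, at zeitgeber times (ZT, in hours, with lights on at ZT0) from 0 to 20, with 3 to 4 old and 4 to 5 young arrays at each time. The remaining 56 arrays came from old and young mice under calorie restriction and entered the fit through the shared estimates of the spread between arrays and of the sex term, and are compared only where restriction is named. Replicates are numbered in the labels, but nothing there calls them separate animals. Each p-value therefore reflects how far these samples scattered, which may in part be technical.

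The liver is made mostly of hepatocytes, which burn fatty acids in peroxisomes and mitochondria under the control of the nuclear receptor PPAR-alpha, store surplus fat in lipid droplets, and clear drugs and steroids with cytochrome P450 and conjugating enzymes. Between them lie Kupffer cells, the resident macrophages of the sinusoids, with smaller numbers of lymphocytes, neutrophils, endothelial and stellate cells. Much of hepatocyte metabolism rises and falls daily with the molecular clock and with feeding, so each old group was set against the young group of the same time, and the differences at the 6 times were averaged with equal weight. In whole tissue, fewer cells of a type and less RNA per cell cannot be told apart.

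Values are log2 intensities, on which a difference of 1 is a 2-fold change. Array medians lay between 5.06 and 5.22. The number of arrays limited the precision: the median standard error of an age difference was 0.0455 on the log2 scale. The hepatocyte markers fitted the labelled tissue in both ages, with albumin (Alb) at a median of 12.5 in old and 12.5 in young arrays. For age, 0 of 9 tested hepatocyte markers had an adjusted p under 0.05 (limma), beside 5.04% of all tested genes. That is too few markers to set the list apart. The labelled sex left little trace in the deposited values. The limma term for labelled sex reached an unadjusted p under 0.05 in 418 of 11787 genes (3.55%) and an adjusted p under 0.05 in 0. Xist, which is transcribed from the silenced X chromosome of females, had a median of 4.42 in 25 labelled female arrays and 4.21 in 22 labelled male arrays. Its highest value was 6.56 in the labelled female arrays and 4.78 in the labelled male arrays. No source used here records a step that would remove a sex difference. In 7 arrays of the series, 5 of them young normal-diet arrays at ZT12 (replicates 1, 2 and 3) and ZT20 (replicates 3 and 4), sex-linked transcripts stood more than 1 log2 unit from the median of their labelled sex. A further array stood apart from its group by far more. In the old array at ZT16, replicate 2, 480 genes were more than 1 log2 unit above the median of the other 3 arrays of the group and 210 below it, against a next highest count of 208 above (old ZT12 replicate 4) and 202 below (old ZT20 replicate 2). Results are given with and without that array.

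Genes that rose in old livers included markers of immune cells, and genes that fell included enzymes of fatty acid oxidation. The changes were small: 1 gene, Cd163, passed the threshold with a change of over 2-fold. With all arrays, 594 of 11787 genes (5.04%) passed an adjusted p under 0.05 (limma, Benjamini-Hochberg), 290 higher (2.46%) and 304 lower (2.58%) in old livers. Without the old ZT16 replicate 2 array 204 genes passed (1.73%), 112 higher and 92 lower. With each array centred on its median, 805 genes passed, 242 higher and 563 lower. Of the 594 genes, 201 passed in both fits, 110 higher and 91 lower, whereas 393 passed only with the array and 3 (Adcyap1r1, Epb41l4a and Sgce, named because they are so few) only without it. The median difference over all tested genes was -0.0024. The number of genes past the threshold also depended on other single arrays. It was 214 without the old ZT20 replicate 3 array, 295 without old ZT12 replicate 4, 382 without old ZT4 replicate 3, 390 without young ZT20 replicate 3, 393 without old ZT8 replicate 2, and 854 without old ZT20 replicate 2. Fewer genes also passed without the 7 arrays with aberrant sex-linked transcripts, and fewer still without them and the old ZT16 replicate 2 array. Leaving the 7 out keeps only replicate 4 of the young ZT12 group and replicates 1 and 2 of the young ZT20 group. The loss of calls therefore cannot be told apart from the loss of arrays.

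**Figure D1:**
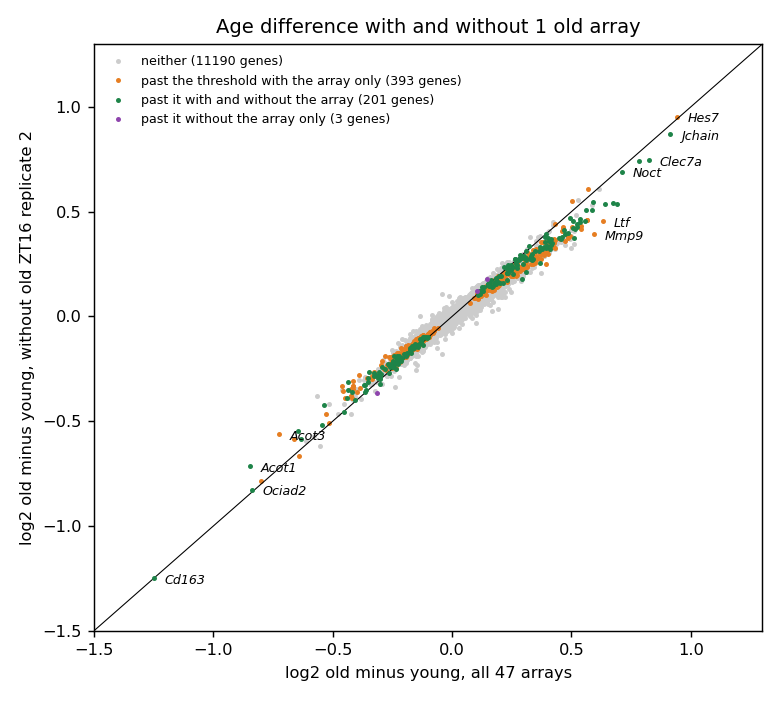
Log2 difference between old and young for each of 11787 genes with all 47 normal-diet arrays (x axis) and without the old ZT16 replicate 2 array (y axis), with the line of equality. The 201 genes that passed in both fits include Cd163 and Ociad2 at the lower left and Jchain, Clec7a and Noct at the upper right, while Mmp9, Ltf and Acot3 are among the 393 that passed only with the array and lie nearer to 0 without it.

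The largest fall was that of Cd163, the macrophage receptor that takes up hemoglobin bound to haptoglobin. Its level ran from 4.01 to 7.27 (median 5.25) in the 22 old arrays and from 5.28 to 8.66 (median 6.54) in the 25 young arrays. Old arrays lay lower at each of the 6 times, and at 3 of them all old arrays lay below all young arrays, which 0.17% of tested genes did at 3 or more times. Averaged over the times Cd163 fell by 1.25 on the log2 scale (SE 0.20; limma adjusted p = 4.97e-05), a 2.38-fold difference, and it fell by 1.25 without the old ZT16 replicate 2 array (adjusted p = 0.000156). The difference was -1.18 at ZT0, -0.73 at ZT4, -0.49 at ZT8, -1.78 at ZT12, -2.17 at ZT16 and -1.16 at ZT20. The smallest differences of Cd163 fell in the light phase and the largest in the dark phase, but the test of a difference between times did not pass (limma adjusted p = 0.645).

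Ociad2, which encodes a mitochondrial membrane protein, followed the same order of groups. Its level ran from 6.21 to 8.15 (median 7.35) in old arrays and from 7.57 to 8.72 (median 8.16) in young arrays, and all old arrays lay below all young ones at 3 of the 6 times. It fell by 0.84 (SE 0.13; limma adjusted p = 4.97e-05, and 0.000156 without the old ZT16 replicate 2 array). At ZT20 alone the Ociad2 difference reached -1.40 (limma adjusted p = 0.0454). Noct, which encodes nocturnin, a phosphatase of NADPH whose transcript cycles daily in liver, was higher in old livers at all 6 times. It ran from 8.43 to 10.7 (median 10.2) in old arrays and from 7.58 to 10.3 (median 9.60) in young arrays, so the ranges overlapped. Noct rose by 0.71 (SE 0.11; limma adjusted p = 4.97e-05, and 0.000156 without the old ZT16 replicate 2 array), with 1.27 at ZT0 (adjusted p = 0.0110) and 1.09 at ZT4 (adjusted p = 0.0346) against 0.31 at ZT16. Cd163, Ociad2 and Noct were the 3 of 42 genes named for the age comparison that stayed past the threshold under all 17 other settings and all 53 settings that left arrays out.

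**Figure D2:**
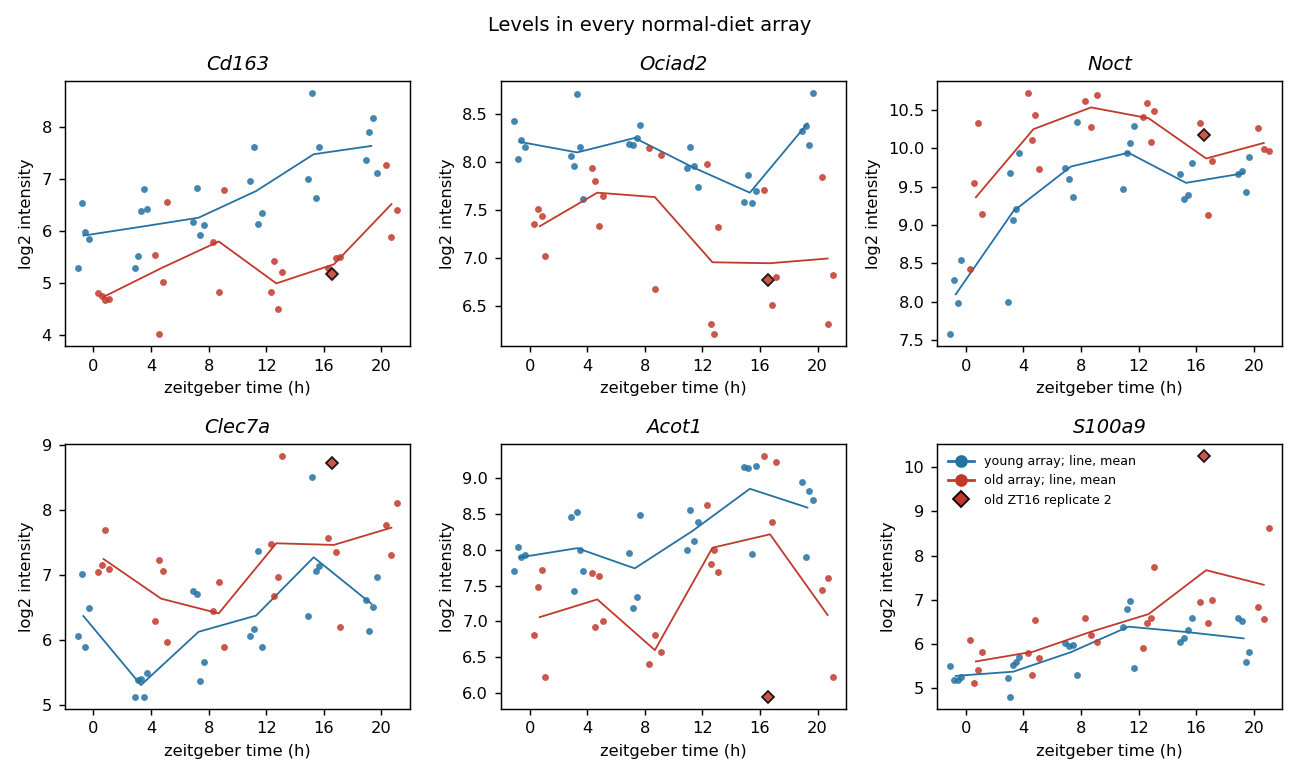
Log2 intensity of 6 genes (y axes) against zeitgeber time in hours (x axes), with a point for each young (blue) and old (red) normal-diet array and a line through the means. Cd163 and Ociad2 lie lower and Noct higher in old arrays at all 6 times, and the black-edged diamond of the old ZT16 replicate 2 array stands at the highest S100a9 value (10.3) and the lowest Acot1 value (5.95).

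Of the 15 genes named as higher, those with the largest rises are known from immune cells. Jchain, which joins the subunits of secreted IgA and IgM in plasma cells, ran from 3.47 to 8.32 (median 6.38) in old arrays and from 3.98 to 7.89 (median 5.27) in young arrays, so the groups overlapped widely. Jchain rose by 0.91 (SE 0.23, limma adjusted p = 0.0143, and 0.0348 without the old ZT16 replicate 2 array), with 1.96 at ZT0 (adjusted p = 0.0491). Without the arrays with aberrant sex-linked transcripts neither Jchain nor Igk-V21 passed. The immunoglobulin light chain segment Igk-V21 rose by 0.79 (SE 0.18, limma adjusted p = 0.00543). Its mean level was 4.19, close to 4.131, the lowest mean kept after genes of low signal were left out. A further Igk-V21 probe set, with a mean of 3.88, gave 0.63. Probe sets for immunoglobulin segments can bind related segments, so the identity of the segment is uncertain. Clec7a, the myeloid receptor dectin-1 that recognises fungal beta-glucan, ran from 5.89 to 8.83 (median 7.11) in old arrays and from 5.12 to 8.51 (median 6.16) in young arrays. It lay above every young array of its time at 3 of 6 times, as 0.0594% of tested genes did at 3 or more, and rose by 0.82 (SE 0.16; limma adjusted p = 0.00209, and 0.00558 without that array).

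S100a9, a subunit of the neutrophil protein calprotectin, ran from 5.11 to 10.3 (median 6.48) in old arrays, with 10.3 in the ZT16 replicate 2 array and 8.62 as the highest of the others, and from 4.80 to 6.96 (median 5.81) in young arrays. S100a9 rose by 0.69 with all arrays and by 0.54 without that array (limma adjusted p = 0.00871 and 0.0186). The macrophage-secreted lipase Pla2g7 rose by 0.68, and Lpl, which hydrolyses the triglyceride of lipoproteins, by 0.64. Among lymphocyte genes, Ms4a4b rose by 0.59 and Nkg7, a protein of cytotoxic granules, by 0.52. Ctsc, the protease that activates granule enzymes, rose by 0.56, Plac8 by 0.56, the myeloid receptor Cd300lb by 0.54, the eosinophil-type ribonuclease Ear3 by 0.54, the ADP receptor P2ry13 by 0.52 and Tmem268 by 0.58. All 15 genes named as higher kept an adjusted p under 0.05 (limma) without the old ZT16 replicate 2 array, as the rule that chose them required. The highest was 0.0483, for Ear3.

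**Figure D3:**
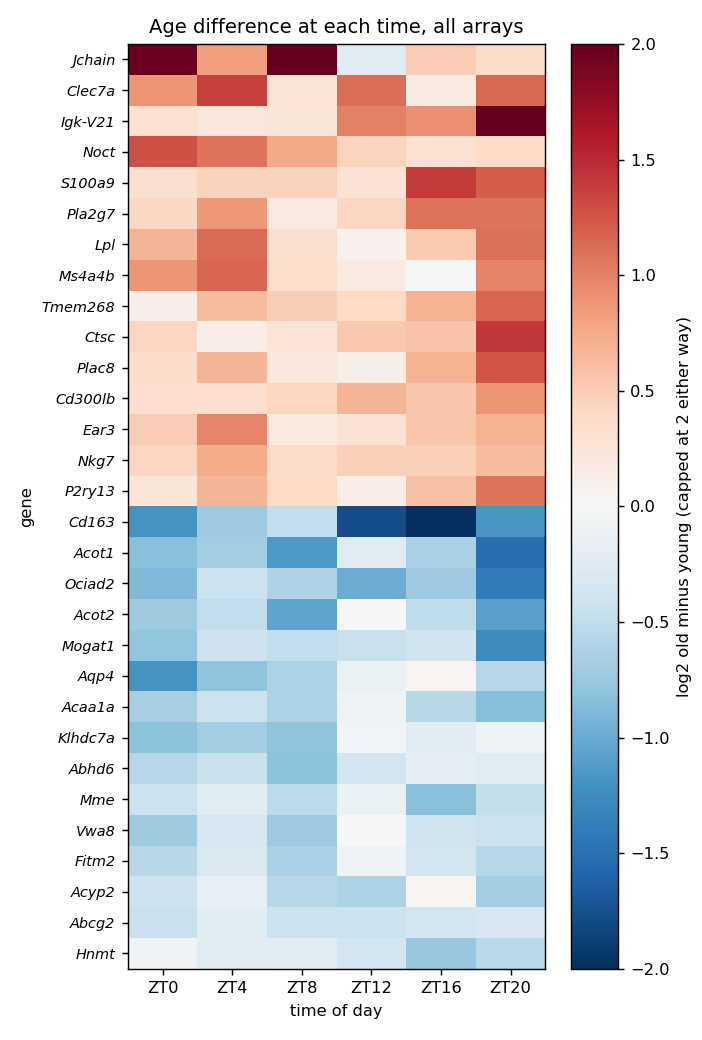
Log2 difference between old and young at each of the 6 times (columns) for the 15 genes named as higher and the 15 named as lower (rows), from blue (lower in old) to red (higher in old), with colours capped at 2. The signs hold at 5 or 6 of the 6 times, which was part of the rule that chose the genes, while the sizes differ: Jchain is highest at ZT0 and ZT8, Igk-V21 at ZT20 and Cd163 lowest at ZT16.

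Marker lists placed these genes among several cell types. Of 10 neutrophil markers that passed the filter on low signal, 6 rose and 0 fell (S100a9, Camp, Csf3r, Ltf, Pglyrp1 and Mmp9), with a median difference of 0.45, against 5.04% of all tested genes called and a median of -0.0024. Leaving out the old ZT16 replicate 2 array left 3 rises (S100a9, Camp and Csf3r), with a median of 0.31. Only normal-diet arrays in the fit gave 0 rises in this list (median 0.45), females alone 0 (median 0.27) and males alone 9 (median 0.96), while 3 rose without the arrays with aberrant sex-linked transcripts and 1 without these and the old ZT16 replicate 2 array. The mean level of the neutrophil list was 8.63 in that array and at most 6.53 in the other old arrays, and lay between 4.54 and 5.98 in the young arrays. Of 18 T and NK cell markers 7 rose and 0 fell (Nkg7, Ms4a4b, Klrk1, Ccl5, Cd3e, Cd3g and Gzmb; median 0.14), and the first 4 also did so without that array. The list's mean ran from 4.97 to 5.86 in old and from 4.72 to 5.42 in young arrays. Of 14 monocyte and myeloid markers 3 rose (Clec7a, Plac8 and Cx3cr1; median 0.28), the same 3 without that array (median 0.21). For T and NK cells the count was 2 with only normal-diet arrays, 0 in females alone and 7 in males alone. Of 12 B and plasma cell markers 2 rose (Jchain and Igk-V21), also without the old ZT16 replicate 2 array and with only normal-diet arrays in the fit. Without the arrays with aberrant sex-linked transcripts 0 rose (median 0.075), and 0 without these and the old ZT16 replicate 2 array.

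Kupffer cell and macrophage markers did not move as a block. Of 16 tested, 5 rose and 1 fell, beside 2.46% of all tested genes called higher and 2.58% lower. Regardless of the threshold 13 were higher and 3 lower in old livers, with a median of 0.34. Those that rose were C1qa, C1qb and C1qc, the chains of the complement protein that tags debris for uptake (0.50, 0.40 and 0.43), the scavenger receptor Msr1 (0.47) and Cd5l (0.46), a secreted protein of tissue macrophages. The one that fell was Cd163. Without the old ZT16 replicate 2 array the 5 rises no longer passed (C1qa adjusted p = 0.0647 by limma), while the fall of Cd163 did. In females alone 0 of the 16 rose and in males alone 15. Clec4f, found on Kupffer cells and little elsewhere, differed by 0.34 (limma adjusted p = 0.12) and Timd4 by -0.044 (adjusted p = 0.947). Whether the cell types differed in number between the ages was not tested.

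**Figure D4:**
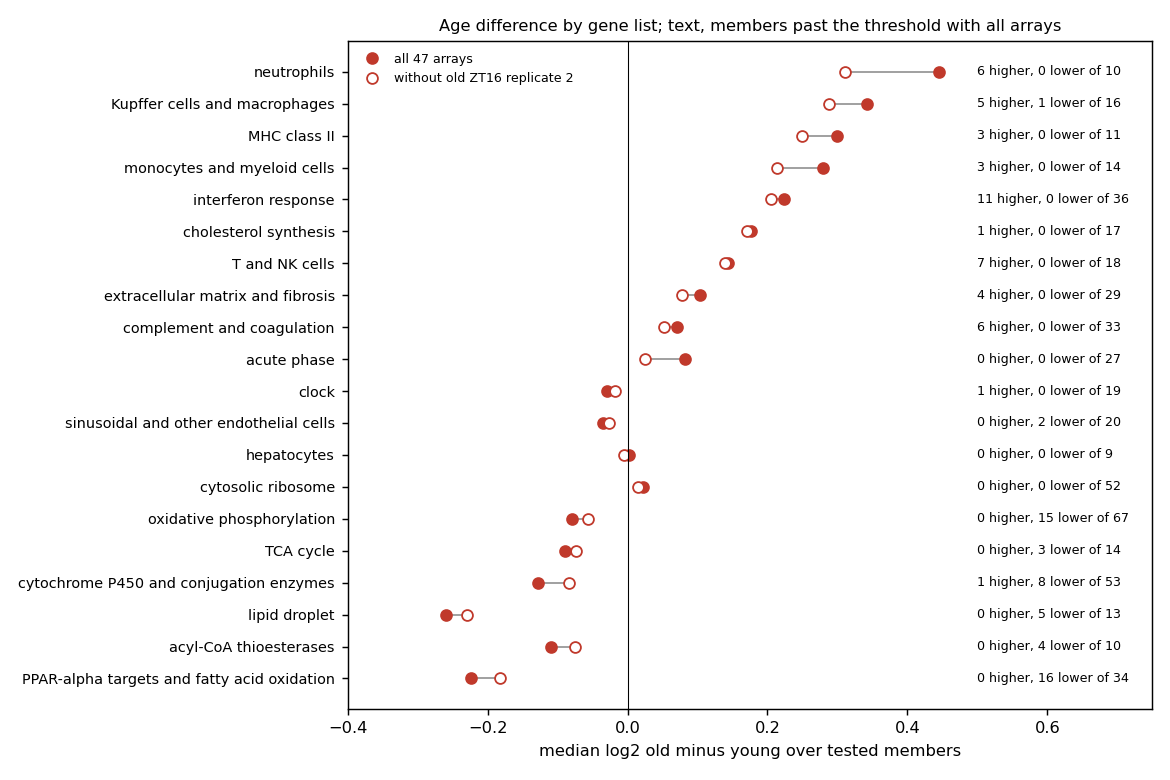
Median log2 difference between old and young over the tested members of 20 gene lists (x axis), with all 47 arrays (filled) and without the old ZT16 replicate 2 array (open), and the number of members past the threshold with all arrays at the right. The neutrophil list moves furthest between the settings, from 0.45 to 0.31, and the lists of PPAR-alpha targets, lipid droplets and thioesterases lie below 0 in both.

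Genes of the interferon response, which cells switch on when viral or misplaced nucleic acid is sensed, were higher together by small amounts. The counts stand beside 2.46% of all tested genes called higher. All 36 tested members were higher in old livers, with a median of 0.22, and 11 rose while 0 fell: the sensors Ddx58 (RIG-I) and Zbp1, the 2'-5' oligoadenylate synthetase family members Oasl2 and Oas3, the transcription factors Irf7, Irf9 and Stat2 that carry the signal, and Trim30a, Rtp4, Ifi47 and Xaf1. Oasl2 ran from 5.41 to 7.87 (median 6.12) in old and from 4.89 to 6.96 (median 5.89) in young arrays and rose by 0.47 (limma adjusted p = 0.0143). Ddx58 ran from 7.68 to 8.52 (median 8.07) in old and from 7.41 to 8.33 (median 7.85) in young arrays and rose by 0.23 (limma adjusted p = 0.0143). Without the old ZT16 replicate 2 array the 36 members were still all higher, with a median of 0.21, and 3 passed (Oasl2, Ddx58 and Trim30a). Without the arrays with aberrant sex-linked transcripts 4 rose, without these and that array 0, in females alone 0 and in males alone 15, with medians from 0.18 to 0.32. The median difference of the list was lowest at ZT0 (0.051) and highest at ZT20 (0.52), where Ifit2 passed with 0.92 (limma adjusted p = 0.0495). The list's mean level was highest of all 47 arrays in old ZT20 replicate 3 (8.48), which is also the array with the second highest neutrophil mean.

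Many interferon-stimulated genes carry an ISRE, a DNA element bound by complexes of Stat and Irf proteins. Its core, GAAA, any 2 bases and GAAA again, was searched for on both strands, with overlaps allowed, in the 250 bases before to 50 bases after each gene's start in RefSeq (GRCm38.p6). It was found for 1079 of 27025 genes (3.99%), for 19 of the 35 list members with a promoter in that table (54.3%), and for 4 of 9 that rose (44.4%). The matches of those 4 are printed 5′ to 3′ on the strand of the gene, to show the element in members that rose, which were picked for holding it; capitals mark the match, which reads TTTC, any 2 bases, TTTC where the core lies on the opposite strand.
Ddx58, chr4:40239804-40239833, minus strand: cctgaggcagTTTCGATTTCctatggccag
Trim30a, chr7:104446104-104446133, minus strand: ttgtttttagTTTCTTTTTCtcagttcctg
Stat2, chr10:128270266-128270295, plus strand: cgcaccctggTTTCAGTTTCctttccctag
Oas3, chr5:120777715-120777744, minus strand: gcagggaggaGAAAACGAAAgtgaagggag
The match began 3 bases after the start for Ddx58 and for Trim30a, 75 bases before it for Oas3 and 222 bases before it for Stat2. A match describes the letters of the window and shows neither binding nor use.

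Antigen presentation and other inflammatory lists gave fewer calls, to be read beside the 2.46% of all tested genes called higher. All 11 tested MHC class II genes were higher (median 0.30) and 3 rose: H2-DMb1 (0.43), which loads peptides, H2-Eb1 (0.43) and the invariant chain Cd74 (0.40); without the old ZT16 replicate 2 array 0 of the 11 passed by limma. Of 11 MHC class I genes 2 rose, H2-Q4 (0.31) and H2-M3 (0.23), and only H2-Q4 did so without that array. Of 24 chemokine and adhesion genes 3 rose, the chemokine Ccl5 (0.40), the fractalkine receptor Cx3cr1 (0.24) and the integrin Itga4 (0.35), the same 3 without it. Of 29 extracellular matrix genes 4 rose, among them the proteoglycans Bgn (0.18) and Dcn (0.12), and without it only Bgn did. The acute phase list, proteins that hepatocytes secrete in systemic inflammation, had 0 of 27 members past the threshold and a median of 0.082, or 0.025 without that array.

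Genes of fatty acid oxidation were mostly lower in old livers. Of the 44 genes listed as PPAR-alpha targets or enzymes of the pathway, 34 passed the filter on low signal. Of these, 31 were lower in old livers and 3 higher, with a median of -0.22, against -0.0024 over all tested genes. Past the threshold 16 fell and 0 rose, beside 2.58% of all tested genes lower and 2.46% higher. With only normal-diet arrays in the fit 7 fell. When the old ZT16 replicate 2 array was left out, 31 were still lower, with a median of -0.18, and 6 fell. In females alone 0 fell (median -0.16) and in males alone 22 (median -0.37), while 5 fell without the arrays with aberrant sex-linked transcripts and 1 without these and the old ZT16 replicate 2 array. The list's mean level ran from 8.13 to 9.54 (median 8.87) in old arrays, with 8.13 in that array, and from 8.73 to 9.53 (median 9.19) in young arrays. The receptor itself, Ppara, ran from 8.48 to 10.1 (median 9.49) in old and from 9.13 to 10.2 (median 9.75) in young arrays and fell by 0.33 (SE 0.078; limma adjusted p = 0.00941, and 0.0300 without that array).

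The 16 falls lay in several steps of the pathway, but other members did not pass, among them the carnitine transferase Cpt2 (-0.20; limma adjusted p = 0.0913) and Hadhb (-0.049; adjusted p = 0.714), a subunit of the mitochondrial trifunctional protein. In peroxisomes, where the longest chains are shortened, the thiolase Acaa1a fell by 0.54 (limma adjusted p = 0.0155), the bifunctional enzyme Ehhadh by 0.39, the isomerase Eci2 by 0.31 (adjusted p = 0.00293) and the membrane protein Pex11a by 0.43. In mitochondria, the carnitine transferase Cpt1a fell by 0.18, the carnitine carrier Slc25a20 by 0.22, the dehydrogenase Acadl by 0.15, the reductase Decr1 by 0.27 and the isomerase Eci1 by 0.33 (limma adjusted p = 0.00306). The microsomal omega-hydroxylase Cyp4a10 fell by 0.42, the droplet coat protein Plin2 by 0.26 and the monoglyceride lipase Mgll by 0.30. Ppara, Acaa1a, Eci1, Eci2, Acot1 and Acot2 kept an adjusted p under 0.05 without the old ZT16 replicate 2 array. Searching the same promoter windows for a direct repeat of the type PPAR-alpha binds, GGNCA, any base and AGGNCA, on both strands, found it in 0.932% of all genes, in 2 of 33 list members (Acot4 and Fabp1) and in 0 of 14 that fell.

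Acyl-CoA thioesterases, which split fatty acyl-CoA back into free acid and coenzyme A and are strongly induced by PPAR-alpha, included the largest fall of the pathway. Acot1 ran from 5.95 to 9.31 (median 7.54) in old arrays, with 5.95 in the ZT16 replicate 2 array, and from 7.19 to 9.17 (median 8.04) in young arrays. It fell by 0.85 (SE 0.17; limma adjusted p = 0.00293) and by 0.72 without that array (adjusted p = 0.00711). At ZT16 the other 3 old arrays had a median of 9.22, above the highest young array of the cycle. Acot2 fell by 0.65 (limma adjusted p = 0.00651); it is a close neighbour and near copy of Acot1, so probe sets may read both. Of 10 tested thioesterases 4 fell (Acot1, Acot2, Acot3 and Acot12), beside 2.58% of all tested genes, and 2 did so without the old ZT16 replicate 2 array.

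The fall of the oxidation list was not even over the day. Its median difference was -0.30 at ZT0, -0.12 at ZT4, -0.31 at ZT8, -0.0083 at ZT12, -0.17 at ZT16 and -0.38 at ZT20. At ZT16 the median turned to 0.091 without the replicate 2 array, so the direction at that time rests on it. Oxidative phosphorylation behaved alike at ZT16, with -0.080 with all arrays and 0.043 without. Differences between times were not tested for lists.

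Lipid droplet and respiratory genes were lower as well, the respiratory genes by smaller steps. Of 67 genes of oxidative phosphorylation 64 were lower, with a median of -0.08, and 15 fell while 0 rose, beside 2.58% of all tested genes lower. The falls were between 0.084 (Ndufa4) and 0.16 (Ndufa6) on the log2 scale. With only normal-diet arrays in the fit 2 fell. Without the old ZT16 replicate 2 array 61 were lower (median -0.056) and 4 fell: Ndufa1 and Ndufv2 of complex I, Uqcrb of complex III and Atp5pb of the ATP synthase. All 14 tested genes of the TCA cycle were lower (median -0.089) and 3 fell (Suclg1, Pdhx and Pdha1), none of which passed by limma without that array. All 13 tested lipid droplet genes were lower (median -0.26) and 5 fell: Fitm2, which helps droplets bud (-0.42), Hsd17b11 (-0.30), the coat proteins Plin4 (-0.39) and Plin2 (-0.26), and the lipase inhibitor G0s2 (-0.42); Fitm2 and Hsd17b11 passed without it. Among enzymes that make fat, Mogat1, which adds a fatty acid to monoacylglycerol, fell by 0.63 (limma adjusted p = 0.0115), Dgat1 by 0.15 and Me1 by 0.45, and only Mogat1 did so without it.

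All 17 tested genes of cholesterol synthesis were higher in old livers (median 0.18), but 1 passed, a share near the 5.04% of all genes called: the regulator Srebf2, which ran from 4.66 to 5.50 (median 5.07) in old and from 4.46 to 5.41 (median 4.84) in young arrays and rose by 0.23 (SE 0.063; limma adjusted p = 0.0265, and 0.0410 without the old ZT16 replicate 2 array). Without the arrays with aberrant sex-linked transcripts 0 of the 17 passed (median 0.13), and in females alone 0 (median 0.081). The list's median turned negative at ZT4 (-0.039) and at ZT16 (-0.16, or -0.092 without that array).

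Of 53 cytochrome P450 and conjugation genes 48 were lower (median -0.13), 8 fell and 1 rose, beside 2.58% of all tested genes lower and 2.46% higher. The falls were Cyp2f2 (-0.23), Cyp2d9 (-0.64), the glutathione transferases Gstm1 (-0.18) and Gsta4 (-0.46), the epoxide hydrolase Ephx2 (-0.21), Ugt2b5 (-0.093), Sult2a8 (-0.53) and the carboxylesterase Ces1f (-0.28), and the rise was the phenol sulfotransferase Sult1a1 (0.15; limma adjusted p = 0.00209). When that ZT16 array was left out, 1 fell (Cyp2f2) and 1 rose (Sult1a1), and only normal-diet arrays in the fit also gave 1 fall and 1 rise. Other named genes with falls were the membrane transporter Abcg2 (-0.37), the peptidase Mme (-0.44), the lipase Abhd6 (-0.44), the histamine methyltransferase Hnmt (-0.37), the water channel Aqp4 (-0.54), Acyp2 (-0.41), Vwa8 (-0.43) and Klhdc7a (-0.45). Each of these 8 also passed without the old ZT16 replicate 2 array, as the rule that chose them required.

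Several lists had few calls or none, to be read beside the 5.04% of all tested genes called. Of 52 cytosolic ribosome genes 0 passed (median 0.022), as did 0 of 24 genes of the endoplasmic reticulum stress response, 0 of 26 of autophagy and lysosomes and 0 of 10 of NAD metabolism. Of 20 endothelial markers 2 fell, Tek (-0.25) and Ptprb (-0.14), and of 15 stellate cell and fibroblast markers 2 rose, Cygb (0.26) and Dcn. Heat shock chaperones were lower in 15 of 16 (median -0.090), with falls of Hspa1b (-0.80) and Dnajb1 (-0.22) that did not pass without the old ZT16 replicate 2 array (adjusted p = 0.0557 and 0.0689 by limma). Of 16 NRF2 targets 12 were lower (median -0.12) and 2 fell, Gstm1 and Gsta4, neither of which passed without that array. Markers of pancreas and skeletal muscle had medians of 0.0034 and -0.015 and no member past the threshold.

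Of 19 tested clock genes 1 passed, Noct, a share near the 5.04% of all tested genes called. Regardless of the threshold 9 were higher and 10 lower, with a median of -0.029. The activators Arntl (0.041), Clock (-0.069) and Npas2 (0.043), the repressors Per1 (0.18), Per2 (0.019), Per3 (0.079), Cry1 (-0.082) and Cry2 (-0.082), and Nr1d2 (-0.24) and Hlf (-0.23) did not pass (lowest adjusted p = 0.0621 by limma, for Hlf). In males alone, where the outlying replicate 2 is the only old array at ZT16, Hlf fell by 0.56, against -0.096 in females alone. At single times Per3 differed: at ZT20 it averaged 7.11 (SD 1.27, n = 3) in old and 5.78 (SD 0.34, n = 4) in young arrays, a difference of 1.32 (limma adjusted p = 0.0454), while at ZT4 the difference was -0.95 (adjusted p = 0.142). For Per3 the test of a difference between times gave an adjusted p of 0.0656.

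Age differences at single times were fewer and rested on 3 to 5 arrays a group. At ZT0, the start of the light phase, 185 genes passed (1.57%), 40 higher and 145 lower; at ZT4 31 (0.263%), 26 higher and 5 lower; at ZT20, late in the dark phase, 42 (0.356%), 28 higher and 14 lower. At ZT12 2 passed (0.017%), Numa1 (0.49) and 0610012G03Rik (-0.55). At ZT8 and ZT16 0 passed by limma, with 484 and 955 genes at an unadjusted p under 0.05 (342 at ZT16 without the replicate 2 array). Leaving that array out, which at other times acts through the sex term and the spread shared by all arrays, gave 269 genes at ZT0 (2.28%), 41 at ZT4 (0.348%) and 89 at ZT20 (0.755%). The counts rested on single arrays: at ZT0 1 gene passed without old replicate 3, 9 without old replicate 4, 17 without young replicate 4 and 24 without young replicate 3, against 409 without old replicate 2. At ZT20 0 passed without old replicate 3, 4 without young replicate 3, 8 without young replicate 4, 17 without young replicate 2, 97 without old replicate 1 and 159 without old replicate 2. At ZT0 319 passed without old replicate 1. At ZT12 0 passed without any 1 of the 4 old arrays or of young replicates 1 and 2, 22 without young replicate 3 and 11 without young replicate 4; at ZT16 70 passed without old replicate 3, 7 without old replicate 1, and 1 without old or young replicate 4; at ZT8 1 passed without young replicate 2.

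At ZT0 the proteasome, which degrades marked proteins, had 5 falls among 27 tested subunits, beside 1.23% of all genes lower at that time: Psmc1 (-0.27), Psmb7 (-0.33), Psmb1 (-0.41), Psmb4 (-0.36) and Psma6 (-0.17), with limma adjusted p between 0.0110 and 0.0455. The median of the list was -0.14 at ZT0 and between -0.049 and 0.041 at the other times. At ZT20 the droplet coat genes Plin5, which tethers droplets to mitochondria in oxidative tissue, and Plin4 differed by -1.40 and -1.13 (limma adjusted p = 0.0101 and 0.0481). The rises at ZT20 included the immune genes Igk-V21 (2.03), Plac8 (1.25) and Klrk1 (0.71). Cx3cr1 rose at ZT0 (0.54; limma adjusted p = 0.0373) and at ZT4 (0.75; adjusted p = 0.00248).

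At ZT4 many of the rises came from 1 array. Of the 26 genes higher in old livers at that time, 16 had their highest ZT4 value in old replicate 4. Among them were transcripts of developing sperm: Smcp, a sperm mitochondrial protein, read 6.99 in that array and at most 4.98 in the other 46 normal-diet arrays, H1f7, the linker histone of spermatids, 7.81 against 4.86, Hmgb4 6.94 against 4.63, Spata3 7.24 against 5.37 and Spa17 6.09 against 4.90. These genes were singled out after their values were seen. Without that array 17 genes passed at ZT4, and 14 passed without young replicate 3. The part that such transcripts play in the other results was not tested.

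The test for a difference of the age effect between times passed for 2 genes (0.017%), while 1240 had an unadjusted p under 0.05. Slc2a4, the insulin-regulated glucose transporter GLUT4, was higher in old livers at ZT8 (0.84) and ZT0 (0.34) and lower at ZT12 (-0.40) and ZT16 (-0.85) (limma adjusted p = 0.0052, and 0.0128 without the old ZT16 replicate 2 array). Its mean was highest at ZT8 in old arrays (7.16) and at ZT12 and ZT16 in young arrays (6.99 at each). Ermard, an endoplasmic reticulum membrane protein, went from -0.40 at ZT0 to 0.70 at ZT20 (limma adjusted p = 0.0417, and 0.0128 without that array). The count moved with single arrays. It was 0 without old ZT8 replicate 1; 1 without old ZT0 replicates 3 or 4, old ZT4 replicate 2, old ZT8 replicate 3, old ZT20 replicates 2 or 3, young ZT0 replicates 2 or 3, young ZT4 replicates 1 or 5, young ZT8 replicate 3, young ZT16 replicate 1 or young ZT20 replicates 2 or 3; and 4 to 6 without young ZT12 replicate 4, old ZT0 replicate 1, old ZT4 replicate 1, old ZT20 replicate 1, young ZT16 replicate 4 or old ZT16 replicate 3. It reached 9 without young ZT0 replicate 1 and 12 without old ZT0 replicate 2.

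The old ZT16 replicate 2 array, a male by its label, was singled out beforehand for its neutrophil and acute phase signal. The genes below were picked as those farthest above the other 3 arrays of its group. Their values therefore describe the array and test nothing. Mmp9, a gelatinase stored in neutrophil granules, read 9.83, against a median of 5.16 in the other 3 arrays of the group and a highest value of 6.22 in the other 46 arrays. The granule proteins Ltf (10.5 against 6.50), Prtn3 (8.34 against 4.58), Camp (8.05 against 5.00) and Pglyrp1 (7.89 against 4.56) were also above every other array, as was the calprotectin subunit S100a9 (10.3 against 6.94). So were the B-cell chemokine Cxcl13 (10.5 against 6.48), the formyl peptide receptor Fpr2 (8.82 against 5.11), the platelet chemokine Pf4 (8.97 against 5.56), the macrophage receptor Timd4 (8.03 against 4.99), Alox5ap (8.51 against 5.51) and the acute phase protein Orm2 (12.3 against 9.02). Its acute phase mean was 10.3, against at most 9.88 in other old and 9.59 in young arrays.

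**Figure D5:**
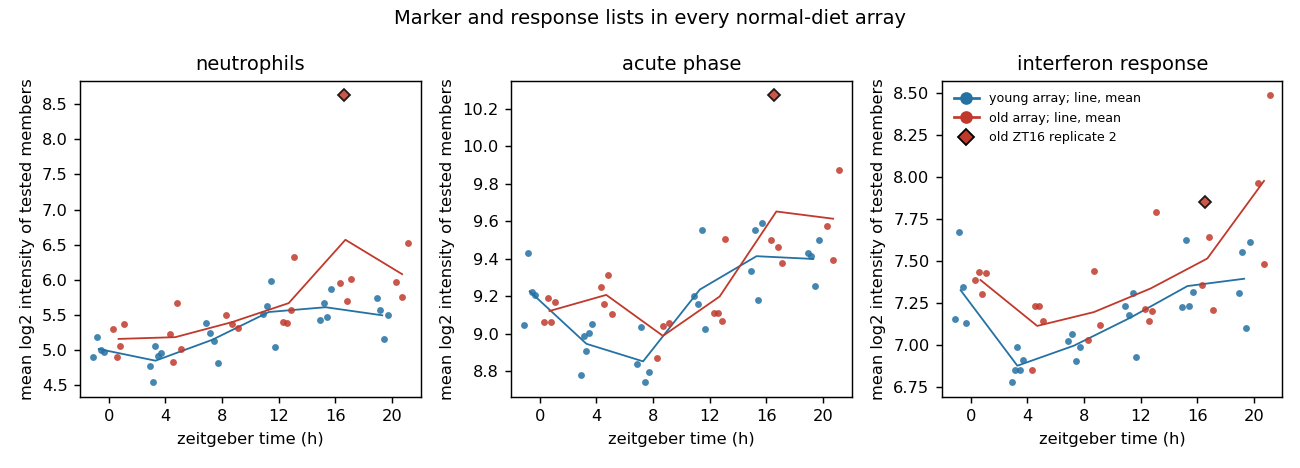
Mean log2 intensity of the tested neutrophil, acute phase and interferon genes (y axes) against zeitgeber time in hours (x axes) in each young (blue) and old (red) normal-diet array, with lines through the means. The diamond of the old ZT16 replicate 2 array stands at 8.63 for neutrophils and 10.3 for acute phase, above all other arrays, but not for interferon, where old ZT20 replicate 3 is highest at 8.48.

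The same array was lowest or nearly so in hepatocyte genes of fat and steroid metabolism, among the genes picked as farthest below its group. Cyp2b13 read 2.78 against a median of 6.99 in the other 3 arrays, Acot3 5.08 against 8.67, Acot1 5.95 against 9.22, Hao2 0.67 against 3.89, Cyp2c37 6.15 against 9.34 and Mme 5.41 against 8.11. Of these, Cyp2b13, Acot3 and Hao2 are among the genes listed as higher in female than in male liver, and the other 3 arrays of the group were labelled female. Over the other normal-diet arrays, of both labelled sexes, the lowest values were 4.23 for Cyp2b13 and 2.31 for Hao2. A part of sex in the low values was not tested. Acot3 had a lower value (4.83) in another old array. The mean level of its hepatocyte markers was 11.8, within the range of the other old arrays (11.7 to 11.9).

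Among the genes that passed only with this array, the 12 with the largest changes were Hes7 (0.94), Ltf (0.63), Mmp9 (0.59), Serpinb1a (0.57), Siglec1 (0.57), Lair1 (0.57), Ly86 (0.54) and Ms4a6b (0.54) among the higher, and Hspa1b (-0.80), Acot3 (-0.73), Hectd2 (-0.66) and Cyp2d9 (-0.64) among the lower. Without it Mmp9 gave 0.39 and Ltf 0.45, and the adjusted p of the 12 (limma) lay between 0.0529 (Ltf) and 0.129 (Ms4a6b). For Hes7 (0.95) and Serpinb1a (0.61) the difference was slightly larger without the array, and for Hspa1b (-0.78) and Cyp2d9 (-0.67) it was almost the same.

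The old ZT16 replicate 2 array is the only male of its group, and the comparison of the sexes rests on it. With all arrays 158 genes (1.34%) passed the test for a difference of the age effect between the sexes, 124 with a more positive difference in males than in females and 34 with a more negative one. Leaving it out gave 0 by limma, while 1004 had an unadjusted p under 0.05. The macrophage receptor Marco differed most, by 2.08 (males minus females; SE 0.44; limma adjusted p = 0.0136), with -1.13 in females alone and 1.09 in males alone; without the array the difference was 1.89 (adjusted p = 0.150). Ms4a7, another macrophage gene, differed by 1.37 (limma adjusted p = 0.00399), and the other genes named by the rule were Aoah (0.80), Arrb2 (0.71), Cyrib (0.70), Car13 (0.69), Evi2a (0.68), Hcls1 (0.61), Ankrd37 (0.58) and Vps37b (-0.60). Other single arrays moved the count too. It was 26 without old ZT12 replicate 4, 32 without old ZT20 replicate 2, 34 without young ZT16 replicate 2, 36 without young ZT12 replicate 3, 38 without young ZT8 replicate 4, and 43 without young ZT12 replicate 4 or old ZT12 replicate 2. It lay between 73 and 105 without young ZT16 replicates 1 or 4, young ZT12 replicate 1, old ZT16 replicates 1, 3 or 4, young ZT8 replicate 2 or young ZT0 replicate 3. It rose to 245 without young ZT8 replicate 3, 260 without old ZT4 replicate 4, 298 without old ZT12 replicate 1, 303 without old ZT20 replicate 3, 340 without young ZT8 replicate 1 and 585 without old ZT4 replicate 3. Fits within a sex left groups of 1 old array, in females alone at ZT4, and in males alone at ZT8, ZT16 and ZT20. Cd163 fell by 1.57 in females and by 0.90 in males, Ociad2 by 1.11 and 0.51, and Noct rose by 0.85 and 0.67.

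Calorie restriction provides other arrays labelled old and young, and the age contrast there shares no array with the one on the normal diet. A young restricted array at ZT16 carried a labelled age of 88 weeks and was kept in the young group. Leaving it out changed the normal-diet age count from 594 to 568. The restriction results below include it, and its effect on them was not tested. Of the 594 genes called on the normal diet, 544 (91.6%) had the same sign under restriction, against 64.3% of all tested genes, and 137 also passed there in the same direction, which is 23.1% of the 594 and 15% of the 911 (7.73%) called under restriction. Of the 201 that passed with and without the old ZT16 replicate 2 array, 190 (94.5%) had the same sign and 64 (31.8%) passed. Noct rose by 0.83 under restriction (limma adjusted p = 9.74e-08), Jchain by 0.89 (adjusted p = 0.00794), Lpl by 0.65 (adjusted p = 0.00661) and S100a9 by 0.57 (adjusted p = 0.0145), and Ociad2 fell by 0.74 (adjusted p = 0.000105) and Vwa8 by 0.47 (adjusted p = 0.00126).

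Some of the named genes did not pass under restriction. Cd163 differed by -0.34 there (limma adjusted p = 0.246); the difference between the diets was -0.92 (SE 0.27; adjusted p = 0.280), so a difference of its age effect between diets was not detectable at this number of arrays. Mogat1 gave -0.14, Mme -0.074, Klhdc7a -0.047 and Nkg7 0.14. Of all tested genes 2 passed the test for a difference of the age effect between diets (0.017%), Syce2 and Gm10037, with 1109 at an unadjusted p under 0.05. Under restriction 2.94% of all tested genes were higher and 4.79% lower. Beside these shares, 8 of 34 oxidation genes fell (median -0.14), 3 of 10 neutrophil genes rose (median 0.28) and 2 of 36 interferon genes rose (median 0.087), the last a number too small to set the list apart.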

How the data were processed

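Liver RNA was extracted with TRIzol, amplified from 25 ng with WTA2 in 17 cycles, labelled with biotin and hybridised to microarrays, per the labels' protocols. The values are the authors' deposited log2 intensities, 1 per probe set, made with RMA per the submitters' processing notes; no RMA version is given in these sources. The 21261 probe sets comprised 15869 assigned to 1 gene symbol, 225 to several and 5167 unnamed. The probe set with the highest mean stood for each of 15716 genes, and the lowest 25% by mean were removed, leaving 11787. limma 3.58.1 (R 4.3.3) fitted 24 group means and a sex term to all 103 arrays, with a mean-dependent prior; the age contrast averaged the 6 times. Benjamini-Hochberg adjusted p-values under 0.05, over all 11787 genes, were called. Interactions of age with time, sex and diet were F or contrast tests in the same framework, and each sex was also fitted alone.

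Named genes were up to 15 higher and 15 lower genes, ranked by size of change, out of those called with and without the old ZT16 replicate 2 array and of 1 sign at 5 or more of the 6 times; up to 12 called only with it; up to 10 for each interaction; up to 12 above and 6 below in that array; list members that were called; and clock genes. Predicted and sex-chromosome genes were left out of all but the last groups. Members and lists were chosen with earlier results of these data known.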

Additional observations from a re-analysis of the deposited data

Results flagged for a closer look

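In 22 of 300 groups of named-gene values, the highest or lowest array was separated from its nearest neighbour by more than Dixon's criterion allows; chance gives about 1 in 20, here 15. The old ZT16 replicate 2 array accounted for 7: S100a9 10.3 (nearest 7.0), Plac8 10.1 (8.11), P2ry13 8.86 (6.95), Aqp4 5.33 (5.83), Acaa1a 7.85 (10.2), Mme 5.41 (8.07) and Vwa8 6.95 (8.65). The old ZT12 replicate 4 array accounted for 4, all high: Lpl 8.92 (nearest 7.33), Plac8 9.02 (7.82), Cd300lb 6.65 (5.41) and P2ry13 7.70 (6.63). Young ZT8 replicate 4 was low for S100a9 at 5.30 (nearest 5.95) and Nkg7 at 4.42 (4.85).

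The others were single values. High values were Clec7a 7.69 in old ZT0 replicate 3 (nearest 7.15), P2ry13 7.72 in young ZT16 replicate 2 (6.45), Aqp4 5.46 in old ZT4 replicate 2 (5.00), Abhd6 7.79 in old ZT12 replicate 1 (7.02) and 7.24 in young ZT20 replicate 3 (6.67), and Acyp2 5.69 in old ZT4 replicate 1 (5.35). Low values were Pla2g7 6.04 in old ZT4 replicate 4 (nearest 6.55), Acot1 7.94 in young ZT16 replicate 3 (9.14) and Mme 7.19 in old ZT4 replicate 3 (7.78).

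The age difference varied between times for Slc2a4 (limma adjusted p = 0.0052) and Ermard (limma adjusted p = 0.0417). It varied between the sexes for 158 genes with all arrays and 0 by limma without old ZT16 replicate 2 (1004 at an unadjusted p under 0.05). Male minus female, the named genes gave 2.08 for Marco, 1.37 for Ms4a7, 0.80 for Aoah, 0.71 for Arrb2, 0.70 for Cyrib, 0.69 for Car13, 0.68 for Evi2a, 0.61 for Hcls1, 0.58 for Ankrd37 and -0.60 for Vps37b.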

How the results depend on the processing

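All counts are genes past an adjusted p under 0.05 (limma), with all arrays 594 for age, 185 at ZT0, 31 at ZT4, 0 at ZT8, 2 at ZT12, 0 at ZT16, 42 at ZT20, 2 for age by time and 158 for age by sex. Fitting only normal-diet arrays gave 174 for age, 26 at ZT0, 1 at ZT4, 0 at ZT12, 1 at ZT20, 0 for age by time and 0 for age by sex. Without the arrays with aberrant sex-linked transcripts there were 295 for age, 0 at ZT12, 0 at ZT20, 1 for age by time and 5 for age by sex. Leaving out these and old ZT16 replicate 2, a setting chosen after seeing the data, gave 73 for age, 312 at ZT0, 49 at ZT4, 0 at ZT12, 0 at ZT20, 1 for age by time and 0 for age by sex. Females alone gave 12 for age, 1 at ZT0, 3 at ZT4, 15 at ZT12, 1 at ZT16, 19 at ZT20 and 6 for age by time. Males alone gave 1721 for age, 4 at ZT0, 3 at ZT4, 2 at ZT8, 1961 at ZT16, 9 at ZT20 and 321 for age by time. Quantile normalization gave 100 at ZT0 and 0 at ZT12, and centring each array 68 at ZT20 and 1 for age by time. No filter gave 90 at ZT4, 1 at ZT16 and 1 for age by time; removing the lower 50% of genes gave 6 at ZT4 and 94 for age by sex; averaging probe sets gave 27 at ZT20. Array weights gave 11 at ZT0, 228 at ZT4, 1 at ZT8, 0 at ZT12, 72 at ZT20, 6 for age by time and 7 for age by sex. In males alone the only old array at ZT16 is the outlying replicate 2. Without the arrays with aberrant sex-linked transcripts, replicate 4 alone remains of the young ZT12 group. The causes of these changes were not tested.

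Replicate numbers did not pair the samples: deviations of same-numbered arrays had a median correlation of -0.12 over 22 pairs. The replicate block gave 519 for age, 18 at ZT20, 1 for age by time and 10 for age by sex.

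Leaving out 1 array or 1 replicate number gave 54 to 854 for age, 0 to 440 at ZT0, 10 to 45 at ZT4, 0 to 2 at ZT8, 0 to 22 at ZT12, 0 to 70 at ZT16, 0 to 419 at ZT20, 0 to 12 for age by time and 0 to 687 for age by sex. Of the 42 genes named for age, 0 changed direction under any setting, 38 lost their call in females alone and 25 in the added setting. With 3 to 5 arrays a group, single times resolve only large differences.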
